A study of Mus musculus with 12 samples.

Results

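Regulatory T (Treg) cells made from naive precursors with harmine and little TGF-β (Treg HAR cells) were set against Treg cells made with much TGF-β and no harmine (Treg hi cells). The differences rested on 8 of the 12 arrays of the series. These were the 4 arrays titled Harmine (2 from FACS-purified and 2 from MACS-purified precursors) and the 4 titled TGFhi (2 and 2). The 4 arrays of the naive cells served as a level of reference and also entered the estimate of the spread behind each SE and p-value. The precursors were naive CD4+CD62L+ cells of Foxp3GFP mice (*Foxp3* IRES-GFP in the study's methods), in which GFP marks *Foxp3* expression and whose age was not given in the sources used here. They were cultured on antibodies to CD3 and CD28, and the GFP+ cells of both kinds of culture were collected by FACS on day 4, so that every Treg array held cells already selected by the reporter. Each array was 1 sample of total RNA on the Illumina Mouse WG-6 v2 chip. Cells given little TGF-β and no harmine were on none of the arrays analysed, so harmine and the amount of TGF-β cannot be told apart. The labels leave unstated whether the arrays of a group stem from different animals or cultures. The p-values measure the spread between arrays, which may be technical in part. The replicates of each naive group differed in sex-linked transcripts. In each Treg hi group only replicate 2 had the Y-linked gene *Eif2s3y* above background.

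Treg cells restrain the responses of other T cells. TGF-β, which signals through the receptors TGFBR1 and TGFBR2 and the SMAD proteins, turns on the lineage factor *Foxp3* in naive CD4+ cells that are stimulated through the T cell receptor, whereas TGF-β with interleukin 6 directs the same precursors to the inflammatory Th17 fate. Harmine is a plant alkaloid that inhibits the DYRK kinases and monoamine oxidase A. The comparison asked in which transcripts Treg cells made along these different routes differ.

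Each array had 29.9% to 30.0% of its probes above background, and precision is limited by the small number of arrays. Levels are given as log2 normalised intensities, on which background ended at 6.23, and a difference of 1 is a 2-fold change. Correlations across probes were 0.978 to 0.992 between Treg HAR and Treg hi arrays and 0.984 to 0.993 between replicates of a Treg group. As a check of the labels, the summed level of 7 Treg markers was 7772 to 9945 on Treg HAR, 4749 to 6119 on Treg hi and 1026 to 1149 on naive arrays. In such a sum of linear levels the bright markers weigh most. Between Treg HAR and Treg hi cells 6 of the 7 differences were positive and 1 negative, with a median of 0.18. Only *Gpr83* among them passed the test described below. *Il2ra*, the α chain of the interleukin 2 receptor, was at 9.56 to 10.32 on Treg HAR and 9.04 to 9.52 on Treg hi arrays, against 5.88 to 6.04 on naive arrays. The probe chosen for *Foxp3* did not show this step, with 6.71 to 7.40 on Treg HAR, 6.62 to 7.10 on Treg hi and 7.09 to 7.42 on naive arrays, and its 3 other probes lay near background. Of 15 B cell markers 8 exceeded background on any Treg array, and the sums overlapped (616 to 980 on Treg HAR and 694 to 1161 on Treg hi arrays), as did those of 28 myeloid markers (913 to 1272 and 1059 to 1352), of which *Lyz2*, *S100a8* and *Csf1r* were at background on all 8 arrays. The sum of 13 CD8 T and NK cell markers was higher on every Treg HAR array (2626 to 3209, with 8 of the 13 above background on any) than on every Treg hi array (2293 to 2613, with 9 of the 13), and its part in the differences below was not tested. The members did not share this direction, with 7 positive and 6 negative differences and a median of 0.05. In 0 of them was every Treg HAR array above every Treg hi array, and in 2 every Treg HAR array was below.

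The Treg HAR arrays were not all alike. On the first principal component of the 8 Treg arrays, which held 37.39% of the variance, replicate 1 of Treg HAR FACS scored 23.6 and replicate 2 of Treg HAR MACS 18.3, whereas the other Treg HAR arrays scored -1.79 and -4.43 and the Treg hi arrays -13.5 to -3.10. The transglutaminase *Tgm2*, singled out after its values had been seen, was at 9.68, 7.14, 7.03 and 9.74 on the Treg HAR arrays (here and below in the order FACS 1, FACS 2, MACS 1 and MACS 2), against 6.89 to 7.44 on the Treg hi arrays. *Batf3*, chosen in the same way, was at 8.91, 6.73, 6.36 and 9.13 on the Treg HAR arrays and 6.47 to 6.60 on the Treg hi arrays. These arrays stood over 1 log2 unit above the other 6 in 7 genes and below them in 6, while the other pair of Treg HAR arrays did so in 1 gene each way. *Eif2s3y*, a Y-linked gene, was above background on both Treg HAR MACS arrays and on replicate 2 of each Treg hi group, so among Treg HAR arrays it coincided with the purification, and *Xist* lay at 9.28 to 10.49 on Treg HAR and 8.98 to 10.21 on Treg hi arrays. On naive arrays *Eif2s3y* was above background on replicate 2 of each group (8.07 and 8.08). *Xist* was at 8.19 and 8.47 on replicate 1 and 5.76 and 5.84 on replicate 2, so the replicates of a naive group differed in sex. The part of these features in the differences below was not tested beyond the fits without the arrays or with the *Eif2s3y* signal as a block.

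In limma, 73 of the 15663 genes differed between Treg HAR and Treg hi cells at an adjusted p under 0.05 (0.466% of the genes tested), of which 27 were higher in Treg HAR cells (0.172%) and 46 lower (0.294%). With so small a share, a gene list with 0 members past the threshold is what most lists would give. None of the 73 differences exceeded 2.73-fold, and 7 genes rose and 9 fell by more than 2-fold. All 73 had Treg HAR arrays that did not overlap with the Treg hi arrays, as had 3.39% (higher) and 3.17% (lower) of all genes. Leaving out arrays therefore could not change the sign of the 73 differences. As the samples were bulk RNA, fewer cells with a transcript and less of it per cell cannot be told apart. Before adjustment 1687 genes (10.8%) had a p under 0.05. With the Treg arrays alone in the fit, which leaves fewer arrays to inform the spread, 10 of the 73 passed, and without the 2 Treg HAR arrays that stood apart 19 of the 73 were among 41 called, while all 73 kept their sign in both.

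**Figure D1:**
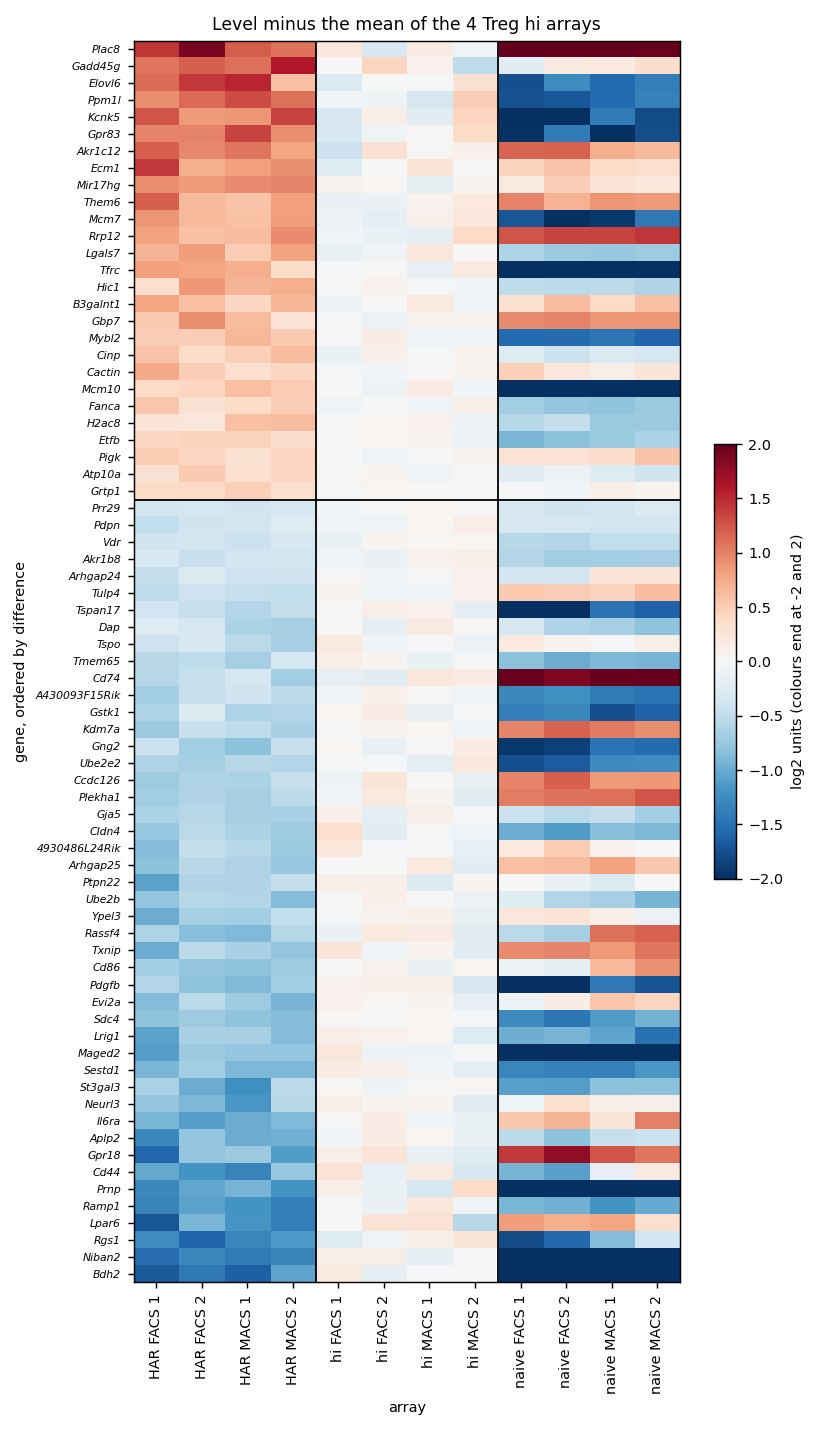
Level of the 73 genes past the threshold (rows, ordered by difference) on the 12 arrays (columns), each as its log2 level minus the mean of the 4 Treg hi arrays, with red above and blue below that mean. The upper 27 rows are higher and the lower 46 lower on every Treg HAR array than on every Treg hi array, while naive arrays lie on either side.

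A core of 6 genes, *Bdh2*, *Mir17hg*, *Ramp1*, *Rgs1*, *Sdc4* and *Sestd1*, passed in each of the 12 fits that left out 1 array and in each of 14 other settings. Leaving out either naive array of a purification gives the same fit, so not all 12 fits are distinct. *Bdh2*, a cytosolic hydroxybutyrate dehydrogenase, was at 6.63, 6.88, 6.68 and 7.25 on the Treg HAR arrays, against 8.50, 8.12, 8.30 and 8.30 on the Treg hi arrays. The groups were far from overlapping, and naive cells were at background (6.07 to 6.19), so that both kinds of Treg cell held the transcript and Treg HAR cells less of it (log2 difference -1.45 ± 0.13, SE, n = 4 arrays each, adjusted p = 0.00307). *Ramp1*, the partner protein that turns the calcitonin receptor-like receptor into a receptor for the neuropeptide CGRP, was at 9.64, 9.89, 9.77 and 9.59 on the Treg HAR arrays, against 10.96, 10.83, 11.18 and 10.89 on the Treg hi arrays. Its difference was -1.24 ± 0.09 (adjusted p = 0.00307), and the Treg HAR levels overlapped with those of naive cells (9.77 to 10.05). *Rgs1*, which ends signalling by G protein-coupled receptors by speeding GTP hydrolysis, was at 9.55, 9.20, 9.49 and 9.64 on the Treg HAR arrays, against 10.53, 10.71, 10.91 and 11.03 on the Treg hi arrays (-1.32 ± 0.12, adjusted p = 0.00322), and its 2 other probes gave -1.32 and -1.46.

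*Sdc4*, a cell surface heparan sulfate proteoglycan, was at 6.75, 6.84, 6.75 and 6.69 on the Treg HAR arrays and 7.56, 7.52, 7.59 and 7.51 on the Treg hi arrays with little spread in either set (-0.79 ± 0.07, adjusted p = 0.00307). *Sestd1*, a protein with SEC14 and spectrin domains, was at 6.44, 6.66, 6.46 and 6.46 on the Treg HAR arrays, against 7.50, 7.46, 7.30 and 7.16 on the Treg hi arrays (-0.85 ± 0.07, adjusted p = 0.00307). It was at background in naive cells (5.998 to 6.19), and neither set of Treg arrays reached into the other. *Plac8*, a small cysteine-rich protein of lymphoid and myeloid cells, and *Cd86*, a ligand of CD28 and CTLA-4, also passed without any 1 array but failed in 1 of the other settings each. *Plac8* was at 7.56, 8.02, 7.35 and 7.22 on the Treg HAR arrays, against 6.35, 5.83, 6.30 and 6.04 on the Treg hi arrays, where only 2 arrays exceeded background (1.40 ± 0.13, adjusted p = 0.00322). The mean of the Treg hi arrays thus lay below the background limit, and with the deposited log2 values the difference was 0.89. Naive arrays were higher than both, at 8.29 and 8.22 (FACS) and 10.54 and 10.57 (MACS). The myeloid markers summed to 3011 and 6391 on these FACS and 16890 and 35970 on these MACS arrays, against at most 1352 on Treg arrays. The part of other cells in the naive *Plac8* level was not tested. *Cd86* was at 6.43, 6.34, 6.30 and 6.39 on the Treg HAR arrays and 7.11, 7.19, 6.98 and 7.14 on the Treg hi arrays (-0.74 ± 0.08, adjusted p = 0.00594), with -0.61 at another probe that exceeded background on 6 of the 8 Treg arrays.

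**Figure D2:**
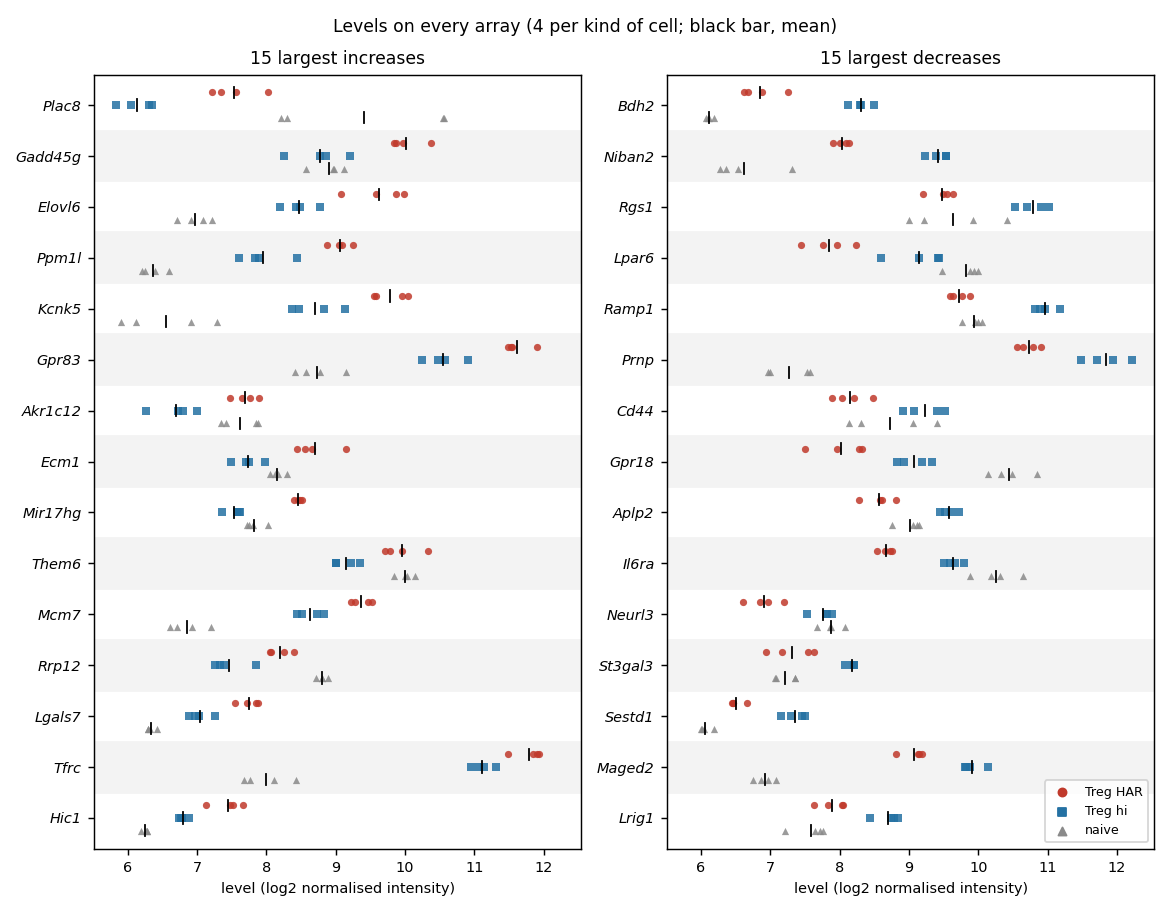
Log2 level (horizontal axis) on each array for the 15 largest increases (left) and decreases (right), with Treg HAR arrays as red circles above Treg hi arrays as blue squares and naive arrays as grey triangles, and the mean of 4 arrays as a black bar. Every red set is clear of its blue set, while their place relative to the naive arrays differs, as for *Plac8*, which is highest on naive arrays, and *Bdh2*, which is at background there.

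Some of the genes that rose act in DNA replication and growth. When the called genes were sorted by role, after the calls were known, 6 of the 27 that rose were placed under replication or the cell cycle and 3 under ribosome production, iron uptake or the control of proliferation by microRNAs, and 0 of the 46 that fell were. Only called genes were sorted, so there is no share of all genes to set beside these counts. Each gene was placed in 1 group, so the counts, and the 0, depend on that placing. The growth factor *Pdgfb* and the growth suppressor *Ypel3*, which both fell, were placed in other groups. *Gadd45g*, which also rose, was placed in neither group and was the 1 of 26 measured p53 and growth arrest genes that passed (median -0.03). *Mir17hg*, the host transcript of the miR-17 to miR-92a cluster, which favours proliferation and survival of lymphocytes, was at 8.46, 8.39, 8.48 and 8.52 on the Treg HAR arrays, against 7.62, 7.57, 7.35 and 7.60 on the Treg hi arrays. The difference was 0.93 ± 0.08 (adjusted p = 0.00307), and naive cells lay between (7.72 to 8.03). The array measures the host transcript and not the mature microRNAs, whose sequences are shown because the transcript acts through them. RefSeq (GRCm38.p6) places 6 of them within 813 bases of chromosome 14, plus strand, from 115043684 to 115044496, and bases 2 to 8, the seed by which targets are recognised, are in capitals:
miR-17-5p: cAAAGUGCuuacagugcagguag
miR-20a-5p: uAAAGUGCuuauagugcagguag
miR-18a-5p: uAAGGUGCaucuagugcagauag
miR-19a-3p: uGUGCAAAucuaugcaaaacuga
miR-19b-3p: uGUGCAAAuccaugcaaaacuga
miR-92a-3p: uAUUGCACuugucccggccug
The 6 carry 4 distinct seeds, of which miR-17-5p and miR-20a-5p share 1 and miR-19a-3p and miR-19b-3p another.

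*Mcm7*, a subunit of the MCM helicase that unwinds DNA at replication forks, was at 9.52, 9.28, 9.22 and 9.46 on the Treg HAR arrays, against 8.52, 8.44, 8.73 and 8.83 on the Treg hi arrays (0.74 ± 0.12, adjusted p = 0.0422). *Mcm10*, which activates that helicase, was at 9.87 to 10.11 on the Treg HAR arrays and 9.40 to 9.66 on the Treg hi arrays (0.48 ± 0.08, adjusted p = 0.0478). *Mybl2*, a transcription factor of proliferating cells, was at 8.22 to 8.41 on the Treg HAR arrays and 7.66 to 7.88 on the Treg hi arrays (0.55 ± 0.06, adjusted p = 0.0119). All 3 were far lower in naive cells, with *Mcm7* at 6.61 to 7.20, *Mcm10* at 6.10 to 6.93 and *Mybl2* at 6.15 to 6.28, that is, the rise went further from naive cells than the Treg hi level. *Mcm7* had another probe with 0.44 and *Mcm10* one with 0.25, both above background on all Treg arrays. The smaller increases in this group were those of *Cinp* (0.52), a partner of replication kinases, the DNA repair gene *Fanca* (0.43) and the histone gene *H2ac8* (0.42). *Mcm10* passed in 0 of the 12 fits without 1 array, *Mcm7* in 3 and *Mybl2* in 10.

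Among all 48 replication genes measured, those 3 rose and 0 fell, 41 differences were positive, and the median was 0.20, against -0.001 over all genes tested. The median of the members lay between 0.13 and 0.24 above the Treg hi mean on each of the 4 Treg HAR arrays, and between -0.08 and 0.08 on the Treg hi arrays, so the shift was present in both pairs of Treg HAR arrays. *Mcm2* (0.53 ± 0.13, adjusted p = 0.134), *Mcm5* (0.37 ± 0.09, adjusted p = 0.125) and *Chaf1a* (0.42 ± 0.07, adjusted p = 0.0536), named after their values were seen, missed the threshold with arrays that did not overlap. Of 32 mitosis genes 0 passed and the median was 0.02. The promoter of *Mcm7* is shown because its gene had the largest difference of this list and E2F factors are known to drive MCM genes. RefSeq gives *Mcm7* 2 starts, of which the window of 1 held 2 matches and that of the other 0, and the windows of *Mybl2* and *Mcm10* also held 0. In the 300 bases around the start with matches (GRCm38.p6 chr5:138171834-138172133, minus strand, from RefSeq), matches on either strand to TTTCCCGC, TTTCGCGC, TTTGCCGC or TTTGGCGC, the 8-base forms of the E2F motif, are in capitals:
*Mcm7* promoter: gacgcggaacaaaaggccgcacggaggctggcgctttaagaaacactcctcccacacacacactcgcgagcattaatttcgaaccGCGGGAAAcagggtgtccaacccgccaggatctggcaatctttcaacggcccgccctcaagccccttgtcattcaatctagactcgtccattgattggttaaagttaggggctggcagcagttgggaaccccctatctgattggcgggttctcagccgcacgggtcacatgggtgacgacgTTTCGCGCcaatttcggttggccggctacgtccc
Such a match occurred in 2.26% of the 32851 promoter windows of this length. Of the called genes with a window, 2 of 22 that rose (*Mcm7* and *Atp10a*) and 1 of 38 that fell held one, against 3.88% of the genes tested. A match of letters is not a measured binding site.

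Most ribosome production genes had differences in the same direction. *Rrp12*, which acts in the maturation and export of ribosomal subunits, was at 8.25, 8.05, 8.07 and 8.39 on the Treg HAR arrays, against 7.39, 7.32, 7.25 and 7.85 on the Treg hi arrays (0.74 ± 0.13, adjusted p = 0.0478), with naive cells higher than both (8.71 to 8.89). It was the 1 member of 47 ribosome biogenesis genes that rose, and 0 fell, while 40 differences were positive and the median was 0.26, or 0.17 without the 2 Treg HAR arrays that stood apart. Here replicate 2 of Treg hi MACS stood with the Treg HAR arrays, since its members had a median of 0.21 above the Treg hi mean, against 0.15 to 0.33 on the Treg HAR arrays and -0.13 to 0.01 on the other Treg hi arrays. *Ppan*, *Mybbp1a* and *Ddx21* had differences of 0.71, 0.65 and 0.62 that did not pass, with adjusted p-values of 0.163, 0.351 and 0.53. The 19 tRNA synthetases had 18 positive differences and a median of 0.27 with 0 members past the threshold. That median was 0.57 on replicate 1 of Treg HAR FACS and 0.27 on replicate 2 of Treg HAR MACS but 0.14 and 0.10 on the other Treg HAR arrays, and 0.10 in the fit without those that stood apart. *Cars*, the cysteinyl synthetase, was at 7.70, 6.59, 6.77 and 7.91 on the Treg HAR arrays and 6.56 to 6.67 on the Treg hi arrays.

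*Tfrc*, the transferrin receptor through which dividing cells take up iron, rose with 11.93, 11.90, 11.85 and 11.49 on the Treg HAR arrays, against 11.07, 11.13, 10.96 and 11.31 on the Treg hi arrays (0.68 ± 0.11, adjusted p = 0.0384). Another *Tfrc* probe gave 0.56, and naive cells were far lower (7.68 to 8.42). *Tfrc* and *Mir17hg* were also the 2 of 28 genes of the MYC network that rose (0 fell, median 0.10). The factor *Myc* itself was close to background at 6.42 to 6.61 on Treg HAR and 6.34 to 6.46 on Treg hi arrays (0.11 ± 0.07, adjusted p = 0.639). The polyamine enzymes *Srm* and *Odc1*, textbook MYC targets, had 0.92 and 0.63 without passing (adjusted p = 0.227 and 0.356), and *Mxd4*, an antagonist of MYC, -0.45 (adjusted p = 0.594).

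**Figure D3:**
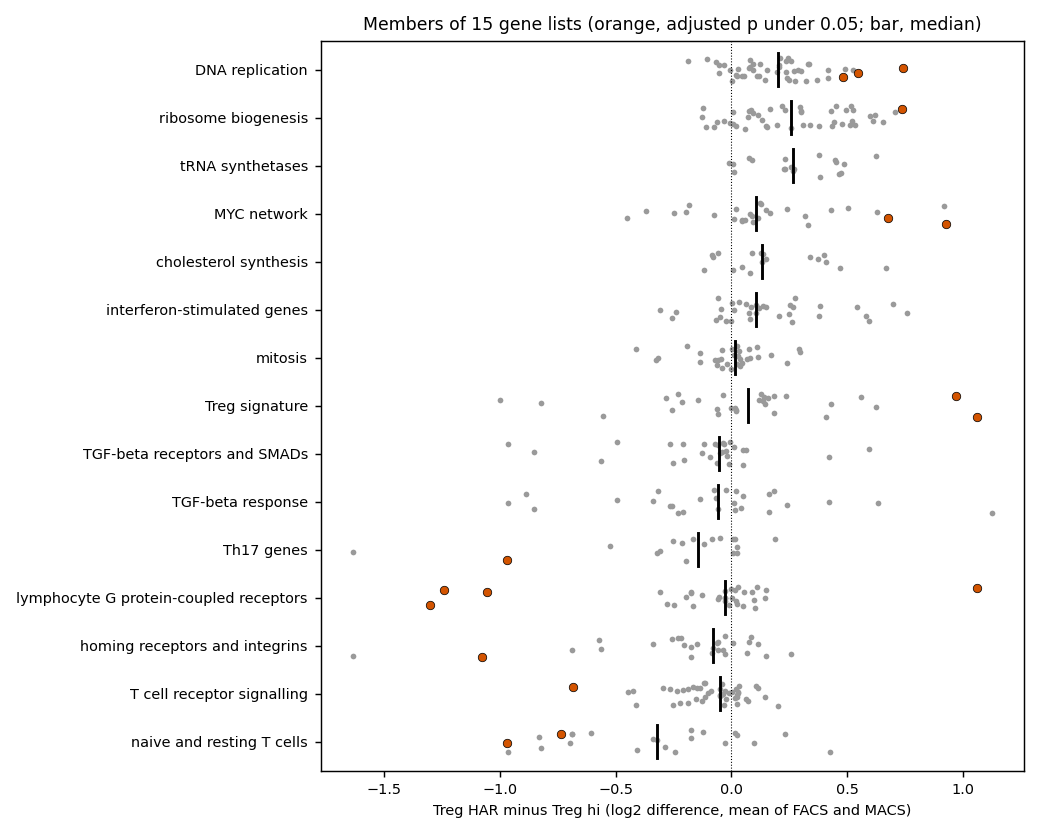
Log2 difference of Treg HAR minus Treg hi cells (horizontal axis) for each measured member of 15 gene lists, with the median as a black bar and members at an adjusted p under 0.05 in orange. The medians of DNA replication (0.20), ribosome biogenesis (0.26) and tRNA synthetases (0.27) lie right of 0 and that of naive and resting T cells (-0.32) left of it, with few members past the threshold in any list.

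Metabolic enzymes changed in both directions, with 7 higher and 5 lower. *Elovl6*, which lengthens long-chain fatty acids, was at 9.58, 9.88, 9.98 and 9.07 on the Treg HAR arrays, against 8.19, 8.48, 8.43 and 8.77 on the Treg hi arrays and 6.71 to 7.21 on naive arrays (1.16 ± 0.20, adjusted p = 0.0478). Replicate 2 of Treg HAR MACS came closest to the Treg hi arrays, and the gene passed in only 1 of the 12 fits without 1 array. *Akr1c12*, an aldo-keto reductase, was at 7.89, 7.65, 7.76 and 7.48 on the Treg HAR arrays, against 6.26, 6.99, 6.72 and 6.79 on the Treg hi arrays (1.002 ± 0.14, adjusted p = 0.0322). Its Treg HAR level overlapped with that of naive cells (7.35 to 7.87). The thioesterase family member *Them6* was at 10.34, 9.78, 9.71 and 9.96 on the Treg HAR arrays, against 9.01, 9.01, 9.22 and 9.34 on the Treg hi arrays (0.80 ± 0.12, adjusted p = 0.0344), with naive cells near the Treg HAR level (9.84 to 10.14). Smaller increases were those of *B3galnt1*, a glycosyltransferase (0.61), *Etfb*, a subunit of the electron transfer flavoprotein of mitochondria (0.42, with 0.55 at another probe), *Pigk*, of the complex that attaches GPI anchors (0.42), and the phospholipid flippase *Atp10a* (0.39). The decreases beside *Bdh2* were those of the sialyltransferase *St3gal3* (-0.85), the glutathione transferase *Gstk1* (-0.52, with -0.62 at another probe), the mitochondrial cholesterol-binding protein *Tspo* (-0.48) and *Akr1b8*, another aldo-keto reductase, which was at background on all Treg HAR arrays and at least 1.22-fold lower there. *St3gal3* was at 7.54, 7.18, 6.94 and 7.63 on the Treg HAR arrays, against 8.20, 8.08, 8.20 and 8.21 on the Treg hi arrays, so the spread among Treg HAR arrays was the larger. Of 18 cholesterol synthesis genes 0 passed, 14 differences were positive and the median was 0.13, which was 0.05 without the 2 arrays that stood apart.

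Among the 73 genes, 6 encode receptors coupled to G proteins or proteins that serve them, of which 5 were lower and 1 higher. Besides *Ramp1* and *Rgs1*, *Lpar6*, a receptor for lysophosphatidic acid, was at 7.44, 8.24, 7.97 and 7.76 on the Treg HAR arrays, against 9.15, 9.43, 9.43 and 8.59 on the Treg hi arrays and 9.48 to 9.99 on naive arrays (-1.30 ± 0.22, adjusted p = 0.0434). *Gpr18*, a receptor of lymphocytes for lipid ligands, was at 7.50, 8.28, 8.32 and 7.96 on the Treg HAR arrays, against 9.19, 9.33, 8.93 and 8.83 on the Treg hi arrays (-1.05 ± 0.16, adjusted p = 0.0361). Both were higher still in naive cells (10.13 to 10.84 for *Gpr18*), that is, the decrease went further from the naive level. *Gng2*, a γ subunit of G proteins, fell by 0.60 and gave -0.51 at another probe. Like *Elovl6*, the genes *Lpar6*, *Gpr18* and *Gng2* did not pass in most of the fits without 1 array. The 1 gene of this kind that rose was *Gpr83*, a receptor enriched in Treg cells, at 11.52, 11.54, 11.90 and 11.48 on the Treg HAR arrays, against 10.25, 10.47, 10.57 and 10.91 on the Treg hi arrays and 8.40 to 9.14 on naive arrays (1.06 ± 0.15, adjusted p = 0.0322). Across all 33 lymphocyte receptors of this class that were measured 1 rose, 3 fell and the median was -0.03, and 14 differences were positive and 19 negative. Of 12 RGS genes *Rgs1* fell, and *Rgs16*, at 6.24 to 6.92 on Treg HAR and 7.03 to 7.75 on Treg hi arrays, missed the threshold (-0.89 ± 0.16, adjusted p = 0.0549).

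Among other surface and secreted proteins 14 were lower and 3 higher. *Prnp*, the cellular prion protein, was at 10.56, 10.79, 10.91 and 10.64 on the Treg HAR arrays, against 11.94, 11.71, 11.48 and 12.22 on the Treg hi arrays, and both were far above naive cells (6.96 to 7.57), with a difference of -1.11 ± 0.15 (adjusted p = 0.0266). *Cd44*, the hyaluronan receptor of activated and memory T cells, was at 8.20, 8.04, 7.89 and 8.48 on the Treg HAR arrays, against 9.52, 9.07, 9.41 and 8.92 on the Treg hi arrays (-1.08 ± 0.17, adjusted p = 0.035), and another probe above background gave -0.86. *Il6ra*, the receptor that lets T cells respond to interleukin 6, was at 8.73, 8.54, 8.65 and 8.76 on the Treg HAR arrays, against 9.67, 9.79, 9.59 and 9.51 on the Treg hi arrays and 9.88 to 10.65 on naive arrays (-0.97 ± 0.14, adjusted p = 0.0336). Its other probes gave -0.29 and -0.56. *Aplp2*, a relative of the amyloid precursor protein, was at 8.28, 8.81, 8.59 and 8.61 on the Treg HAR arrays, against 9.52, 9.73, 9.61 and 9.45 on the Treg hi arrays (-1.004 ± 0.12, adjusted p = 0.014), but another of its probes, above background on all 8 Treg arrays, gave 0.13. The growth factor receptor antagonist *Lrig1* was at 7.63, 8.05, 8.04 and 7.84 on the Treg HAR arrays, against 8.84, 8.78, 8.75 and 8.44 on the Treg hi arrays (-0.81 ± 0.13, adjusted p = 0.035). Smaller decreases were those of the transmembrane protein *Evi2a* (-0.76), the growth factor *Pdgfb* (-0.74), the claudin *Cldn4* (-0.66), the MHC class II invariant chain *Cd74* (-0.52, with -0.55 at another probe) and *Tspan17* (-0.47). *Cd74* is also a B cell marker, and it was at 10.20 to 12.80 on naive arrays, where the B cell markers summed to 2540 to 21010. *Gja5*, which encodes a connexin, and *Pdpn* were at background on all Treg HAR arrays and at least 1.4-fold and 1.08-fold lower there.

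The 3 surface or secreted proteins that rose were *Kcnk5*, *Ecm1* and *Lgals7*. *Kcnk5*, a background potassium channel, was at 9.96, 9.55, 9.57 and 10.04 on the Treg HAR arrays, against 8.37, 8.83, 8.46 and 9.13 on the Treg hi arrays and 5.91 to 7.28 on naive arrays (1.09 ± 0.19, adjusted p = 0.0478), with 0.72 at another probe. It did not pass in most of the fits without 1 array. *Ecm1*, an extracellular matrix protein that is part of the Treg signature, was at 9.15, 8.44, 8.56 and 8.66 on the Treg HAR arrays, against 7.49, 7.74, 7.99 and 7.71 on the Treg hi arrays (0.97 ± 0.14, adjusted p = 0.0336). *Lgals7*, a galectin, was at 7.71, 7.88, 7.55 and 7.85 on the Treg HAR arrays, against 6.89, 6.97, 7.26 and 7.03 on the Treg hi arrays (0.71 ± 0.09, adjusted p = 0.0183), and it passed in 10 of the 12 fits without 1 array.

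Other genes past the threshold act in signalling inside the cell. *Ptpn22*, a phosphatase that dampens T cell receptor signalling, was at 7.67 to 8.25 on Treg HAR and 8.46 to 8.86 on Treg hi arrays (-0.69 ± 0.12, adjusted p = 0.0478), and it was the 1 member of 47 T cell receptor signalling genes that passed (median -0.05). *Txnip*, which curbs glucose uptake and binds thioredoxin, was at 10.73 to 11.21 on Treg HAR, 11.50 to 11.97 on Treg hi and 12.57 to 12.80 on naive arrays (-0.74 ± 0.13, adjusted p = 0.0473). *Ypel3*, a growth suppressor, fell to 11.62 to 12.11 on Treg HAR arrays, against 12.46 to 12.70 on Treg hi arrays (-0.70 ± 0.10, adjusted p = 0.028). The adaptors *Plekha1* (-0.62) and *Rassf4* (-0.73, with -0.83 at another probe that exceeded background on 6 of the 8 Treg arrays) fell as well. In the other direction, the protein phosphatase *Ppm1l* was at 8.88, 9.08, 9.25 and 9.04 on the Treg HAR arrays, against 7.90, 7.84, 7.61 and 8.44 on the Treg hi arrays (1.12 ± 0.16, adjusted p = 0.0304), and its other probes gave 0.58 and 0.92. *Gadd45g*, which binds and activates a kinase upstream of p38, was at 9.85, 9.98, 9.87 and 10.38 on the Treg HAR arrays, against 8.77, 9.20, 8.86 and 8.26 on the Treg hi arrays (1.24 ± 0.17, adjusted p = 0.028), with 0.77 at another probe that exceeded background on 7 of the 8 Treg arrays. The 3 enzymes of the ubiquitin system among the 73 genes were lower, namely the ligase *Neurl3* (-0.85) and the conjugating enzymes *Ube2b* (-0.70) and *Ube2e2* (-0.61). *Neurl3* was at 6.97, 6.85, 6.60 and 7.19 on the Treg HAR arrays, against 7.88, 7.81, 7.81 and 7.52 on the Treg hi arrays.

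Among the remaining genes, *Niban2*, a phosphoprotein that protects cells from apoptosis, was at 7.90, 8.13, 8.003 and 8.09 on the Treg HAR arrays, against 9.53, 9.53, 9.23 and 9.39 on the Treg hi arrays (-1.39 ± 0.14, adjusted p = 0.00594), and it missed the threshold in 1 of the 12 fits without 1 array (highest adjusted p 0.0519). *Maged2*, of the MAGE family, was at 8.82, 9.18, 9.14 and 9.13 on the Treg HAR arrays, against 10.14, 9.82, 9.81 and 9.88 on the Treg hi arrays (-0.84 ± 0.11, adjusted p = 0.0266). The histone demethylase *Kdm7a* (-0.58) fell, and the vitamin D receptor *Vdr* (-0.38) fell close to background, while the zinc finger repressor *Hic1* rose with 7.13, 7.66, 7.48 and 7.52 on the Treg HAR arrays, against 6.77, 6.89, 6.77 and 6.74 on the Treg hi arrays (0.65 ± 0.10, adjusted p = 0.0361). *Gbp7*, an interferon-induced GTPase, rose by 0.59, while of 34 interferon-stimulated genes 0 passed (median 0.11). *Isg15* of that list was highest on the 2 arrays that stood apart, at 8.18, 6.28, 6.37 and 6.82 on the Treg HAR arrays and 6.04 to 6.29 on the Treg hi arrays. The other increases were *Cactin* (0.51) and *Grtp1*, which was at background on all Treg hi arrays and at least 1.12-fold higher in Treg HAR cells, and further decreases were those of *4930486L24Rik* (-0.66), *Ccdc126* (-0.61), *A430093F15Rik* (-0.52), *Tmem65* (-0.52), *Dap* (-0.48), *Tulp4* (-0.47) and *Prr29*, which was at background on all Treg HAR arrays and at least 1.06-fold lower there.

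The difference was then taken separately in cells from FACS-purified and from MACS-purified precursors. With 2 arrays against 2, 4 genes passed in FACS cultures (0.0255%), *Plac8* higher (0.00638%) and *Bdh2*, *Ramp1* and *Sestd1* lower (0.0192%), and 3 in MACS cultures (0.0192%), *Mir17hg* higher (0.00638%) and *Ramp1* and *Sdc4* lower (0.0128%). *Ramp1* was the gene past the threshold in both (-1.13 ± 0.13 in FACS and -1.36 ± 0.13 in MACS cultures). At an unadjusted p under 0.05 the FACS cultures had 1616 genes (10.3%) and the MACS cultures 962 (6.14%). *Plac8* differed by 1.70 in FACS and 1.11 in MACS cultures and *Gadd45g* by 0.92 and 1.57 in the same order, and neither interaction passed (0.59 ± 0.26 and -0.64 ± 0.34, adjusted p = 0.915 for each). The interaction itself gave 0 genes (0%), with 775 at an unadjusted p under 0.05 (4.95%). Its smallest p-values belonged to the deubiquitinase *Usp7*, at 0.37 in FACS and -0.56 in MACS cultures (limma, adjusted p = 0.55), and the antiviral deaminase *Apobec3*, at 0.33 and -0.34 (adjusted p = 0.595). *Mrpl55*, *Prkaca* and *Nup85* followed, each positive in FACS and negative in MACS cultures, with an adjusted p of 0.915. In the mean of both purifications *Usp7* had -0.10 ± 0.06.

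**Figure D4:**
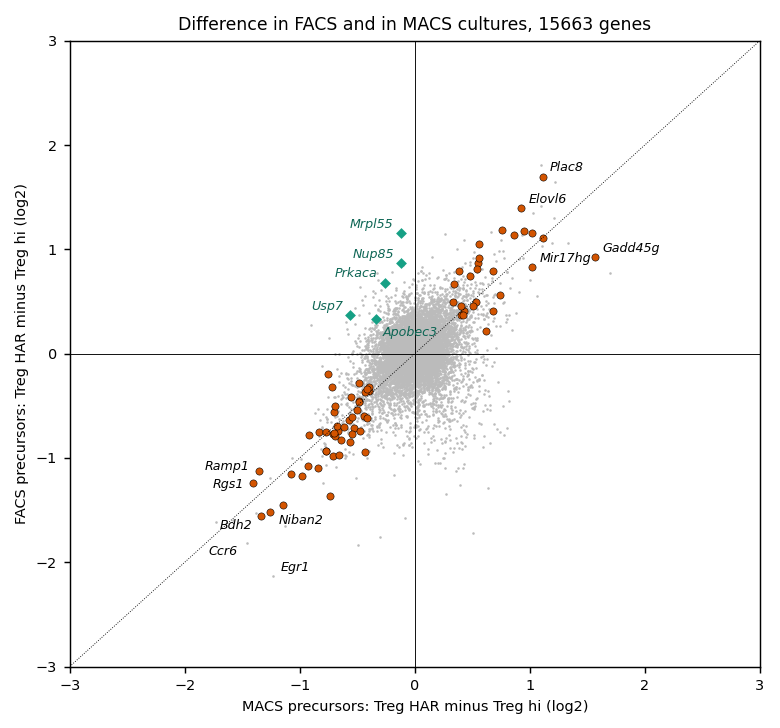
Log2 difference of Treg HAR minus Treg hi cells in cultures from FACS-purified (vertical axis) against MACS-purified precursors (horizontal axis) for 15663 genes, with the 73 genes past the threshold of the mean difference in orange and the 5 with the smallest interaction p in green. The orange genes lie in the 2 quadrants of equal sign, which their choice by the mean favours, and the green ones lie above and left of the centre.

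Most of the genes that define the Treg state did not pass the test, which held for genes in general. Of 30 measured Treg signature genes 2 rose, *Gpr83* and *Ecm1*, 0 fell, and the median was 0.07. Over all genes tested 0.172% rose and 0.294% fell. *Foxp3* differed by 0.12 ± 0.13 (adjusted p = 0.896), *Il2ra* by 0.56 ± 0.15 (adjusted p = 0.172, with -0.13 at another probe), *Ctla4* by -0.28 ± 0.31 (adjusted p = 0.884) and *Ikzf2*, which was close to background, by 0.16 ± 0.09 (adjusted p = 0.603). *Ctla4* varied most, with 8.46, 9.82, 10.57 and 9.70 on the Treg HAR arrays and 10.03, 10.06, 9.44 and 10.16 on the Treg hi arrays. *Ebi3*, a subunit of interleukin 35, was at 8.43, 7.88, 7.68 and 8.61 on the Treg HAR arrays, against 9.10, 9.24, 9.24 and 9.02 on the Treg hi arrays. Its arrays did not overlap, but it missed the threshold (-0.9999 ± 0.19, adjusted p = 0.0712), as did *Tnfrsf18*, which encodes the costimulatory receptor GITR, in the other direction (0.63 ± 0.15, adjusted p = 0.125). Both were named after their values had been seen.

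In the TGF-β pathway 0 of 28 receptors, ligands and SMADs and 0 of 27 response genes passed, with medians of -0.05 and -0.06. Over all genes tested 0.466% passed, so these counts do not show that the pathway was unchanged. Of the 28, 6 differences were positive and 22 negative, and arrays did not overlap in 1 that was higher and 5 that were lower. The 27 response genes had 12 positive and 15 negative differences, with 2 higher and 6 lower whose arrays did not overlap. Over all genes 3.39% (higher) and 3.17% (lower) had such arrays. *Tgfbr2*, the ligand-binding receptor, was at 8.67, 9.20, 9.05 and 8.43 on the Treg HAR arrays, against 9.96, 10.09, 9.88 and 9.27 on the Treg hi arrays and 10.86 to 11.44 on naive arrays (-0.96 ± 0.19, adjusted p = 0.0743). *Tgfbr1*, the signalling receptor, was at 9.17 to 9.87 on Treg HAR and 9.88 to 10.35 on Treg hi arrays (-0.50 ± 0.16, adjusted p = 0.251). *Skil*, a corepressor of SMADs that TGF-β induces, had -0.85 ± 0.17 (adjusted p = 0.0839), *Smad3* -0.20 ± 0.14 (adjusted p = 0.729), and the inhibitory *Smad7* was at background on every Treg array. *Id2*, a repressor that TGF-β and BMP signals control, was at 9.96, 8.86, 9.01 and 10.53 on the Treg HAR arrays, against 8.18 to 8.67 on the Treg hi arrays (1.13 ± 0.35, adjusted p = 0.231), with the higher values on the 2 arrays that stood apart.

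Of 18 Th17 genes *Il6ra* fell, 0 rose and the median was -0.14. *Ccr6*, the chemokine receptor of Th17 cells and of some Treg cells, had a larger difference that did not pass (-1.64 ± 0.39, adjusted p = 0.125), with 7.18, 8.68, 8.91 and 7.37 on the Treg HAR arrays, against 10.02, 9.47, 9.30 and 9.89 on the Treg hi arrays and 6.15 to 7.24 on naive arrays. All Treg HAR arrays were lower, but the 2 that stood apart were lower by far more than the others. *Rora*, a lineage factor of Th17 cells, was at 6.64 to 6.79 on Treg HAR and 6.94 to 7.09 on Treg hi arrays (-0.31 ± 0.06, adjusted p = 0.081). Of 23 genes of naive and resting T cells *Il6ra* and *Txnip* fell, 18 differences were negative and the median was -0.32, with -0.39 to -0.22 on the Treg HAR arrays. The same 2 arrays held the lowest values of *Foxo1*, which maintains the quiescent state, at 7.69, 8.57, 8.28 and 7.54 on the Treg HAR arrays and 8.49 to 8.86 on the Treg hi arrays (-0.70 ± 0.20, adjusted p = 0.214). Of 12 measured DYRK and CLK kinase genes and *Maoa*, the known targets of harmine and their relatives, 0 passed. Since 0.466% of all genes tested passed, most lists of this size would give that count. *Dyrk1a* was at background on every array, *Dyrk1b* had -0.42 ± 0.15 (adjusted p = 0.329) and *Clk1* 0.03 ± 0.26 (adjusted p = 0.996).

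Large differences did not always pass. Of the genes that differed by more than 1 log2 unit, 16 passed and 21 did not, 10 of these positive and 11 negative. The largest difference of all was that of *Egr1*, an immediate early transcription factor, which was at 6.82, 6.90, 7.07 and 7.997 on the Treg HAR arrays, against 8.75, 9.24, 9.07 and 8.47 on the Treg hi arrays and 10.43 to 11.99 on naive arrays, with no overlap between the Treg kinds (-1.68 ± 0.32, adjusted p = 0.0666). *Igf2* (1.26 ± 0.23, adjusted p = 0.0549) and the interferon-induced membrane protein *Ifitm3* (1.43 ± 0.32, adjusted p = 0.108) also had arrays that did not overlap, with *Igf2* at 8.72, 7.74, 7.88 and 8.53 on the Treg HAR arrays, against 6.70, 6.92, 6.79 and 7.43 on the Treg hi arrays. *Ctsw*, a cathepsin of cytotoxic cells, had 6.60, 8.50, 8.19 and 6.60 on the Treg HAR arrays and 9.43, 8.89, 9.03 and 9.22 on the Treg hi arrays (-1.67 ± 0.43, adjusted p = 0.15), again lowest on the 2 arrays that stood apart. *Egr1*, *Igf2* and *Ifitm3* were chosen after their values were seen.

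Set against naive cells, 15 of the 27 genes that rose had a naive mean below both kinds of Treg cell (55.6%, against 42.8% of all genes with a positive difference). For 8 it lay between them (29.6%, against 17.9%) and for 4 above both (14.8%, against 39.3%). Of the 46 that fell, 19 had a naive mean below both (41.3%, against 35% of all genes with a negative difference). For 10 it lay between (21.7%, against 19.1%) and for 17 above both (37%, against 45.9%). *Tfrc* and *Mcm7* were examples of the first kind among increases, *Rrp12* and *Plac8* of a naive level above both, and among decreases *Prnp* and *Bdh2* lay above naive cells and *Gpr18* and *Il6ra* below them. These positions are descriptive, because the naive arrays hold precursors and not a culture without TGF-β. The naive arrays also carried more signal of other cells, with sums of 3011 to 35970 for myeloid and 732 to 8690 for erythroid and platelet markers. On Treg arrays these sums were at most 1352 and 4.628. Further probes of 49 of the 73 genes were on the chip. Of the 25 such probes that exceeded background on all 8 Treg arrays, 24 had the sign of the probe used here and 1, that of *Aplp2*, did not, and 12 reached at least 0.8 of its size.

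The number of genes past the threshold depended on single arrays. It was 14, 140, 22 and 50 without each Treg HAR array in the order used above, 9, 14, 18 and 94 without each Treg hi array, and 14, 14, 55 and 55 without each naive array, which enter only through the spread. Of the 73 genes 8 passed in all 12 of these fits and 4, *Vdr*, *Atp10a*, *Dap* and *Mcm10*, in 0, while all 73 kept their sign in each. That sign was fixed in advance, because the Treg HAR and Treg hi arrays of the 73 genes did not overlap. Leaving out either naive array of a purification gave the same fit. *Rrp12*, *St3gal3*, *Ptpn22* and *Txnip* were among the genes that did not pass in most of these fits. The block by the *Eif2s3y* signal gave 58 genes, 50 of them among the 73.

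**Figure D5:**
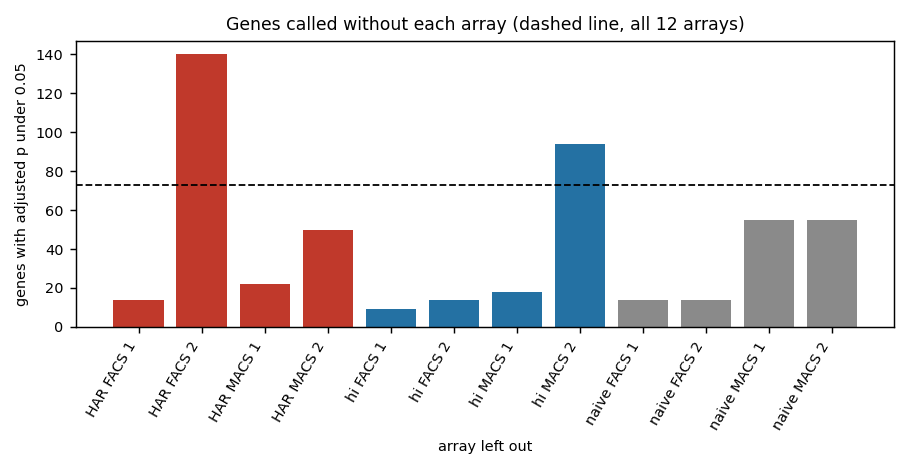
Number of genes at an adjusted p under 0.05 between Treg HAR and Treg hi cells (vertical axis) when 1 array is left out (bars; red, Treg HAR; blue, Treg hi; grey, naive), with the 73 of all 12 arrays as a dashed line. The bars run between 9 and 140.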

How the data were processed

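RNA of 12 samples (4 Treg HAR, 4 Treg hi and 4 naive, 2 of each from FACS-purified and 2 from MACS-purified precursors) was amplified with the Illumina TotalPrep kit and hybridised to Mouse WG-6 v2 arrays. The authors deposited non-normalised probe intensity values from GenomeStudio, and separately a table of log2 values made with lumi (version not given in the sources used here), which served as an alternative. The mean intensity was 256.642 on every array, so the deposited values had already been scaled. In limma 3.58.1 (R 4.3.3) the intensities were corrected by normexp with an offset of 50, quantile normalised and put on the log2 scale. A probe was kept if it exceeded the array median on at least 2 arrays (32081 of 45281 probes). Of all probes 34885 had 1 gene in the platform annotation, 18 several and 10378 none, and the probe with the highest mean stood for a gene (15663 genes). Background ended 3 SDs above the density peak of each array, a limit set with the values in view.

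Means of the 6 groups of 2 arrays were fitted on all 12 arrays (6 residual degrees of freedom), the FACS and MACS differences were averaged, and two-sided p-values were adjusted by Benjamini-Hochberg over all genes, with 0.05 as the threshold. All arrays entered so that the spread was estimated from 12 of them. On simulated data of 15663 genes for this comparison 175 of 200 changed genes were called and 8 others. These counts depend on the sizes and the spread that were simulated. They therefore do not give the share of real differences found, or of false calls, on these arrays. Of the genes that differed by more than 1 log2 unit on the real arrays, 16 passed and 21 did not. "At least" folds set the brighter mean against the background limit or the dimmer signal, whichever was higher. Genes past the threshold, up to 4 called or otherwise 2 leading members per list, and a fixed set of Treg, TGF-β, Th17 and harmine genes could be named. *Batf3*, *Cars*, *Ccr6*, *Chaf1a*, *Ddx21*, *Ebi3*, *Egr1*, *Foxo1*, *Id2*, *Ifitm3*, *Igf2*, *Isg15*, *Mcm2*, *Mcm5*, *Mxd4*, *Mybbp1a*, *Odc1*, *Ppan*, *Skil*, *Srm*, *Tgm2* and *Tnfrsf18* are outside this rule and were chosen after their values were seen. The members and lists were chosen with earlier results of these data known. Alternatives covered background correction, normalisation, filters, samples, blocks, variance model, probes, each array left out and the methods' t-test. The role groups were given to called genes after the calls, and 2 of the genes past the threshold are not reported here. Figures were drawn with Python 3.11.15 and matplotlib 3.10.9.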

Additional observations from a re-analysis of the deposited data

Results flagged for a closer look

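Among the named genes 12 of the 256 sets of 4 arrays held 1 array far from the other 3, where chance gives about 1 in 20. In Treg HAR cells *Gpr83* was at 11.9 on MACS replicate 1 (others 11.48 to 11.54), *Gstk1* at 9.962 on FACS replicate 2 (others 9.636 to 9.667), *Ikzf2* at 6.566 on MACS replicate 2 (others 6.264 to 6.294), *Maged2* at 8.817 on FACS replicate 1 (others 9.135 to 9.183) and *Sestd1* at 6.663 on FACS replicate 2 (others 6.442 to 6.457). In Treg hi cells *Klrd1* was at 7.653 (others 6.745 to 6.843), *Slc38a2* at 10.78 (others 10.36 to 10.4) and *Vdr* at 6.521 (others 6.677 to 6.706) on FACS replicate 1, and *St3gal3* at 8.077 on FACS replicate 2 (others 8.201 to 8.21). *Ptpn22* was at 8.458 on MACS replicate 1 (others 8.794 to 8.861), and *Arnt* at 7.65 (others 7.27 to 7.288) and *Pdgfb* at 8.048 (others 8.465 to 8.516) on MACS replicate 2 of Treg hi cells.

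Probes without 1 assigned gene were not used above. In a limma fit of all 32081 kept probes, 19 of 6252 such probes passed an adjusted p under 0.05, of which 6 were higher and 13 lower in Treg HAR cells, and the strongest increases were 1.10 and 0.85 and the strongest decreases -0.89 and -0.88 on the log2 scale.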

How the results depend on the processing

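The count of genes that differed between Treg HAR and Treg hi cells, 73 above, was 45 with the deposited log2 values (43 of them among the 73), 10 with only Treg arrays in the fit, 10 with only those arrays normalised and fitted, and 41 without the 2 Treg HAR arrays that stood apart (19 among the 73, chosen after seeing the data). It was 117 (59 among the 73) with purification ignored. The methods' t-test gave 1613 genes at an unadjusted p under its threshold and 8 after Benjamini-Hochberg. Leaving out 1 array gave 9 to 140 genes. With the replicate block the count was 39, of which 38 were among the 73. The replicate numbers did not pair the arrays (correlations of replicate differences -0.622 to 0.308), and the crossed block, chosen after seeing the data, gave 38.

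In FACS cultures (4 genes) the count was 0 without background correction, with median scaling, with the deposited values, with the replicate block, with the crossed block, with the *Eif2s3y* block and with each probe tested on its own, 1 with either Treg-only setting and without the 2 arrays, and 16 with a trended, robust variance. Leaving out 1 array gave 0 to 10. In MACS cultures (3 genes) it was 0 with median scaling, either Treg-only setting and the replicate block, 1 with an offset of 16, above the median on 8 arrays, with the *Eif2s3y* block and with each probe, 5 without the 2 arrays and 9 with the trended, robust variance. Leaving out 1 array gave 0 to 4. The interaction (0 genes) gave 1 with the deposited values. The mean difference of all 73 genes kept its sign in the 14 other settings run for single genes, some of which could not change it. In the 12 fits without 1 array the sign could not change, because the arrays did not overlap. The cause of the changes in the counts was not tested. The number of arrays, and signals near background, limit the precision.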
